A study of Homo sapiens with 6 samples.

Results

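MTUS1 (ENSG00000129422, chromosome 8 of GRCh38 from 17643795 to 17800917, minus strand) encodes microtubule associated scaffold protein 1, also known as ATIP, a candidate tumour suppressor. It was described here with all its transcripts, that is every row of the deposited transcript table with this gene symbol. These were 25 of the 151453 transcripts that carry a gene, and MTUS1 was 1 of 40173 genes. The gene was picked because its counts differed between the groups in these same libraries, so all MTUS1 values between groups are given as a description, without a test.

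RNA was sequenced from HCT116, a human colorectal cancer cell line, at passages 15 to 20, to ask which genes change when cytoglobin (CYGB), a haem protein of the globin family, is overexpressed. MOCK cells, labelled wild type, received a control virus, and CYGB cells, labelled CYGB overexpression, received a lentivirus with the CYGB coding region fused to FLAG. Both populations went through viral infection and puromycin selection to give stable lines, and whether replicates came from separate infections is not given in the sources used here. There were 3 libraries per group, described by the submitters as biological replicates, and p-values weigh group differences against the spread between these libraries. If the libraries of a group came from the same stable line, that spread does not cover differences between separately made lines. In bulk RNA, more cells that carry a transcript and more transcript per cell cannot be told apart.

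The transcripts with a gene held 47193496 to 53006853 counts per MOCK library and 50117465 to 53531777 counts per CYGB library. CYGB itself had 10, 28 and 34 counts in MOCK against 34935, 27681 and 32333 in CYGB cells, as the labels have it. Of 10 epithelial marker genes, 9 were expressed strongly enough to be tested, and their summed level was 4128 to 4603 CPM (counts per 1000000 of the TMM-scaled library total) in MOCK and 4201 to 4490 CPM in CYGB cells. The most abundant were KRT8, KRT19 and KRT18, the keratins of simple epithelium, with log2 fold changes of -0.14, 0.11 and 0.14. The largest fold changes among the 9 were those of VIL1 (log2 fold change 0.89) and EPCAM (-0.33). VIL1 was low, at 0.38 CPM in MOCK and 0.72 CPM in CYGB cells, and KRT20 and CDH17 were also under 1 CPM in both groups. LGALS4 stayed at 0 to 14 counts per library. Of 12 marker genes of other cell types, only 4 could be tested, with a summed level of 45.9 to 51.2 CPM in MOCK and 48.2 to 55.3 CPM in CYGB cells, nearly all of it COL1A1 (log2 fold change 0.10). ACTA2 (log2 fold change -0.84) was under 1 CPM, and the leukocyte and endothelial markers PTPRC, CD3E, PECAM1 and CDH5 had at most 12 counts in any library.

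The protein family made from MTUS1 is named ATIP, after its binding to the AT2 angiotensin receptor. The long ATIP3 forms sit along microtubules and on the mitotic spindle, where they slow microtubule growth by way of the plus-end protein EB1. The short ATIP1 and ATIP4 forms share the carboxy-terminal coiled-coil part, start from other promoters and lack the long amino-terminal region. Reduced MTUS1 has been described in several carcinomas, those of the colon among them.

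At the level of the gene, MTUS1 was low in MOCK cells and high in CYGB-overexpressing cells. Its summed counts were 544, 506 and 442 in MOCK replicates 1 to 3 and 8529, 8652 and 8663 in CYGB replicates 1 to 3. The groups lay far apart, and every CYGB library held at least 14.3 times the CPM of every MOCK library (at most 19.8 times). The level was 9.89 ± 1.49 CPM in MOCK against 168 ± 2.75 CPM in CYGB cells (SD, n = 3 each), a 17.0-fold difference. In the fit over all genes this was a log2 fold change of 4.09 with a standard error (SE) of 0.14. Among the 19987 tested genes, 50.3% had a lower mean CPM than MTUS1 in MOCK cells and 94.6% had a lower one in CYGB cells.

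The CYGB libraries lay close together. The coefficient of variation of the MTUS1 level over them was 1.64%, against a median of 8.70% for the 2188 genes within 2 times its level there. In MOCK cells it was 15.1%, close to the median of 15.0% for the 3633 genes at a similar level. For background, groups did not overlap in 11.0% of tested genes and 5.72% of tested genes were higher in every CYGB library. An adjusted p under 0.05 (the quasi-likelihood test of edgeR, Benjamini-Hochberg adjusted) was reached by 0.055% of genes, 0.025% of all being higher in CYGB cells. MTUS1 was chosen from that contrast, and nothing is read from these shares for it.

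**Figure D1:**
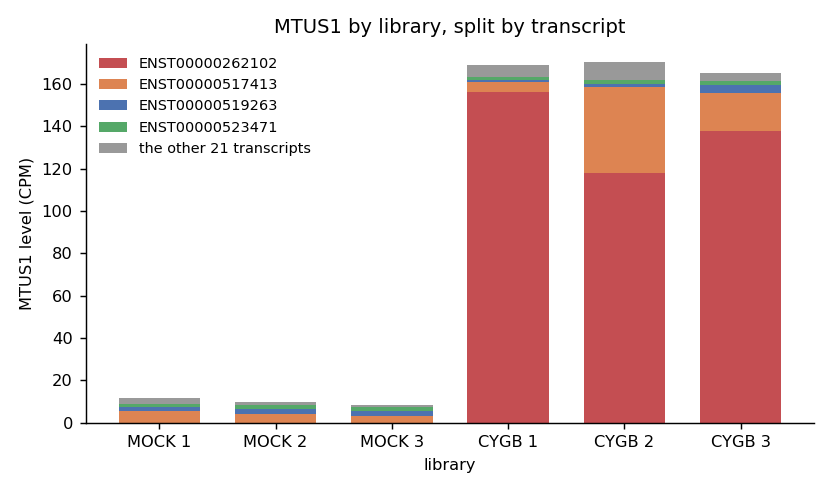
The level of MTUS1 in CPM (bars, 1 per library) split into its 4 most abundant transcripts and the other 21. The 3 MOCK bars lie between 8.59 and 11.5 CPM and the 3 CYGB bars between 165 and 170 CPM, most of the latter made of ENST00000262102.

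The 25 transcripts differ in where they start, which exons they hold and whether they code for protein. GENCODE 29 lists 29 transcripts of the gene. Of the 25 in the table, 7 are protein coding, 4 are retained-intron transcripts, 13 are processed transcripts without an open reading frame and 1 is a target of nonsense-mediated decay. The long coding transcripts are ENST00000262102, with 15 exons and a protein of 1270 residues, and ENST00000381869 and ENST00000519263, which both code for 1216 residues. The 1270-residue form, known as ATIP3a, has an additional exon of 162 bases (exon 4, chromosome 8 from 17723672 to 17723833) that the 1216-residue form, ATIP3b, lacks. The shorter coding transcripts are ENST00000381861 (517 residues, ATIP4), ENST00000297488 (436 residues, ATIP1) and ENST00000544260 (415 residues).

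**Figure D2:**
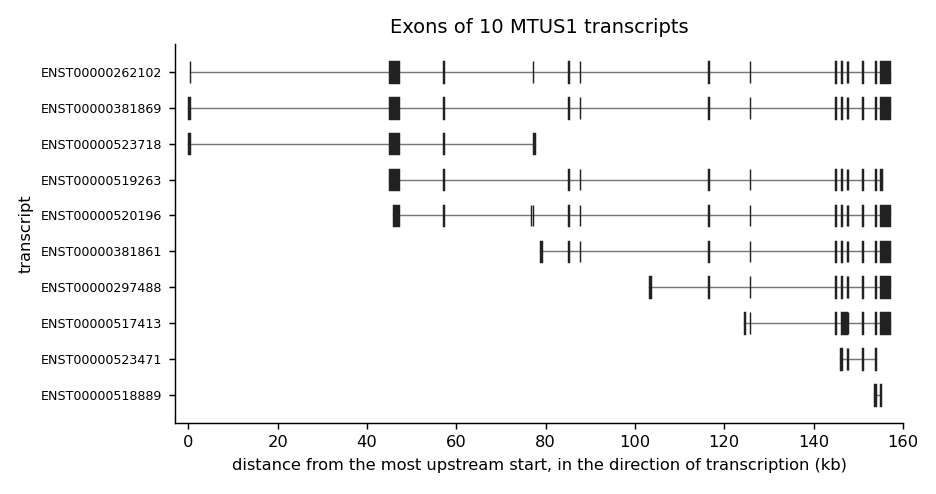
Exons (boxes) and introns (lines) of 10 MTUS1 transcripts, placed by distance in kb from the most upstream start in the direction of transcription. The top 3 transcripts share the first exon, 44.9 kb upstream of the start of ENST00000519263, and the transcripts further down begin at later starts and share the last exons.

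ENST00000262102, the ATIP3a transcript, held most of the difference between groups. It had 0 counts in all 3 MOCK libraries and 7892, 5989 and 7223 counts in CYGB replicates 1 to 3. It reached 137 ± 19.2 CPM in CYGB cells (SD, n = 3). On the isoform counts as deposited, this was at least 2305-fold above 3 counts per library, which a count of 0 still allows. That bound covers counting error and not the division of reads among isoforms. All transcripts with exon 4, summed, had a CPM ratio of 373. ENST00000262102 made up 81.7 ± 11.7% of the gene's counts in CYGB cells, and 86.8% of the gene's difference in CPM between groups. Per length of transcript, its level in CYGB cells was 22.3 RPKM (CPM per kilobase of the annotated transcript), against 0.511 RPKM for ENST00000519263, a transcript of the 1216-residue form.

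The retained-intron transcript ENST00000523718, which shares the first exon, followed the same pattern at a lower level. It had 0 counts in every MOCK library and 168, 145 and 116 counts in the CYGB libraries, at least 47.0-fold above the level of 3 counts per library. ENST00000381869, the third transcript with this first exon, had 0, 2 and 4 counts in MOCK against 22, 162 and 9 in CYGB cells. The nonsense-mediated decay target ENST00000520196 had 0 counts in every MOCK library and 17, 51 and 2 counts in the CYGB libraries. It starts within the large second exon and also holds the 162-base exon.

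ENST00000517413, a retained-intron transcript that starts 124.5 kb into the gene, was the most abundant transcript in MOCK cells. It had 257, 219 and 170 counts in MOCK, 43.0 ± 4.40% of the gene, and 239, 2055 and 961 counts in CYGB cells. CYGB replicate 1 lay within the MOCK range and the other two CYGB libraries were far above it, so the groups overlapped although the mean CPM was 4.92 times higher. In the CYGB libraries its counts were highest where those of ENST00000262102 were lowest. Added together, these transcripts gave 8131, 8044 and 8184 counts in CYGB cells. The coefficient of variation of the sum was 1.62% on the CPM scale. Taken alone, ENST00000262102, which made up most of the sum, had 14.0% and ENST00000517413 had 85.2%. In MOCK the sum was that of ENST00000517413.

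Each remaining transcript had fewer counts than ENST00000517413 in every MOCK library. ENST00000519263, with the 1216-residue coding sequence but a start downstream of the first exon, had 91, 122 and 119 counts in MOCK against 47, 77 and 201 in CYGB cells, a CPM ratio of 0.958. The groups overlapped, and the MOCK values lay within the CYGB range. ENST00000523471, a retained-intron transcript of the last part of the gene, had 65, 104 and 99 counts in MOCK against 72, 102 and 80 in CYGB cells, a CPM ratio of 0.941. Here too the groups overlapped. ENST00000518889, a processed transcript near the end of the gene, had 31, 10 and 10 counts in MOCK against 28, 24 and 32 in CYGB cells, a CPM ratio of 1.57, again with overlap. The retained-intron transcript ENST00000517721, which starts just upstream of exon 4, had 47, 1 and 6 counts in MOCK against 1, 11 and 1 in CYGB cells, a CPM ratio of 0.226, with most of the counts in MOCK replicate 1. The transcripts of ATIP4, ATIP1 and the 415-residue form together had 17, 11 and 5 counts in MOCK against 4, 6 and 0 in CYGB cells. Of these, the ATIP1 transcript had 13, 9 and 5 counts in MOCK against 4, 2 and 0 in CYGB cells, without overlap but too few to pass the expression filter. ENST00000519066, which codes for 41 residues, was at 0 in all 6 libraries.

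**Figure D3:**
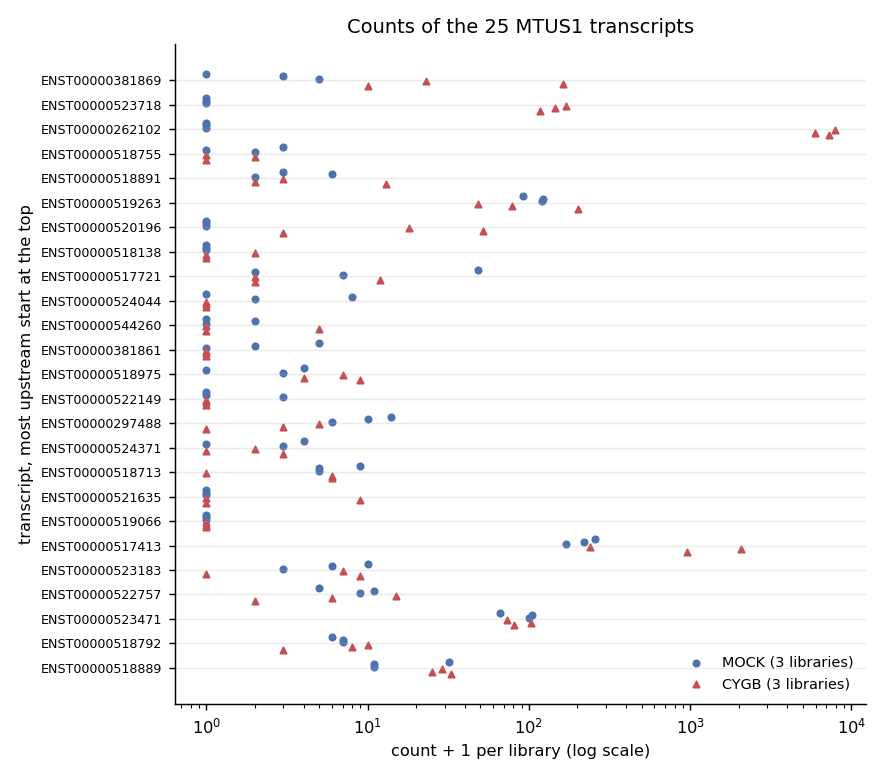
The count plus 1 of each of the 25 MTUS1 transcripts in each library (log axis; circles MOCK, triangles CYGB), ordered from the most upstream start. ENST00000262102 stands between 5989 and 7892 counts in the CYGB libraries and at 0 in the MOCK libraries, while ENST00000519263 and ENST00000523471 overlap between groups and 16 transcripts stay under 20 counts throughout.

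Of the 25 transcripts, 6 passed the expression filter, and 2 of these, ENST00000262102 and ENST00000523718, were higher in every CYGB library than in any MOCK library, and 0 were lower in every one. All over the table, 4.95% of the 66609 transcripts that passed were higher in this way and 5.6% were lower. Both transcripts passed the filter through the CYGB libraries alone, since they were at 0 in MOCK, so nothing is read from this count. ENST00000523718 made up 1.66 ± 0.32% of the gene in CYGB cells (SD, n = 3).

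Grouped by start site, with starts within 1000 bases joined, the transcripts fell into 15 groups. The most upstream group, from 17800917 to 17800668 on chromosome 8, holds ENST00000262102, ENST00000381869 and ENST00000523718. It had 0, 2 and 4 counts in MOCK, 0.43 ± 0.45% of the gene, and 8082, 6296 and 7348 counts in CYGB cells, 84.1 ± 11.0% of the gene (SD, n = 3 each). The group at 17755981 to 17755011 held 22.6 ± 5.27% of the counts in MOCK and 1.52 ± 0.80% in CYGB cells. That around 17676494 to 17675264, with ENST00000517413, held 45.5 ± 4.50% in MOCK and 12.7 ± 10.5% in CYGB cells. These lower shares stand beside a larger total. All transcripts outside the most upstream group together had 544, 504 and 438 counts in MOCK against 447, 2356 and 1315 in CYGB cells, where replicate 1 lay within the MOCK range.

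Read along the gene, most counts of the MOCK libraries belonged to transcripts that start downstream of the second exon. ENST00000519263, which starts at that exon, held 16.7 to 26.9% of them. Transcripts that overlap the first exon of ENST00000262102 had 0 to 4 counts per MOCK library, and those that overlap its large second exon of 2245 bases, which codes for much of the amino-terminal region, had 95, 129 and 125 counts. Transcripts that overlap exon 4, the 162-base exon, had 47, 1 and 6 counts in MOCK, all of them from ENST00000517721. At exons 5 to 7, of which ATIP4 holds all and ATIP1 only exon 7, the sums were 134 to 166 counts in MOCK. From exon 8 to exon 15, which ATIP1, ATIP4 and the 415-residue form all hold, they lay between 313 and 474 counts. In the CYGB libraries the sums were 6196 to 8510 counts over all 15 exons, so MOCK and CYGB differed most at the start and at exon 4. These are counts of whole transcripts, placed by their exons, and not read coverage of each exon.

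**Figure D4:**
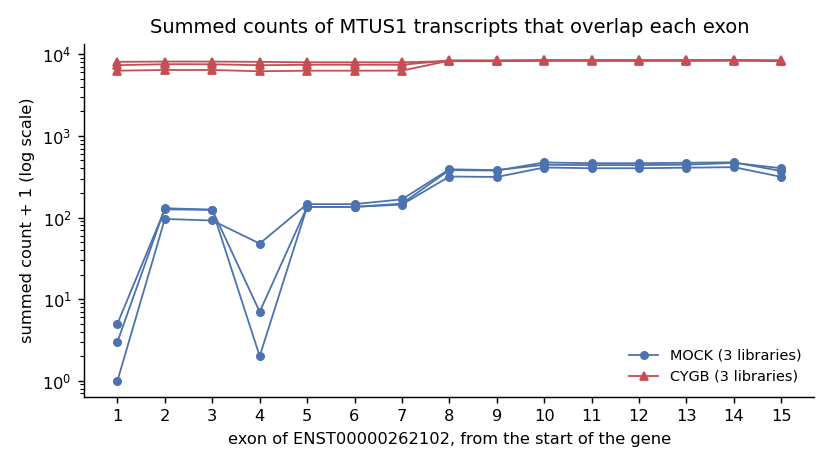
For each of the 15 exons of ENST00000262102 in order, the summed count plus 1 of all MTUS1 transcripts that overlap it (log axis), 1 line per library. The CYGB lines stay at 6196 counts or more, and the MOCK lines run from at most 4 counts at exon 1 through a dip at exon 4 to 313 to 474 counts from exon 8 on.

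How well these isoforms can be told apart was described from their annotated sequences. Of the 6011 windows of 150 bases in ENST00000262102, 0 are absent from the other MTUS1 transcripts of the table. The libraries were sequenced as paired reads, and a read pair can span more than a window. Among the MTUS1 transcripts of the table, the direct chain of exons 3, 4 and 5 is found in ENST00000262102 alone. Whether read pairs covered that chain was not tested. Exon 4 of ENST00000262102 also lies within ENST00000523718, ENST00000520196, ENST00000517721 and ENST00000518138, of which ENST00000517721 alone had counts in MOCK. ENST00000262102 shares 94.8% of its windows with ENST00000381869 and 46.6% with ENST00000517413. Of the windows of ENST00000517413, 31.0% are found in no other transcript, as are 13.4% of those of ENST00000523718. The division of reads among isoforms was made by the authors' counting, which is not given in the sources used here, and its part in the transcript values was not tested. A division among MTUS1 transcripts leaves their sum as it is.

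A pattern of 0 counts in every MOCK library and at least 100 counts in every CYGB library was rare. It was found in 25 transcripts of the table, 0.0165% of those with a gene, and both ENST00000262102 and ENST00000523718 are among them. The reverse pattern was found in 21 transcripts. The median gene-level log2 fold change for the 25 transcripts was 0.24, and it was over 1 for 5 of them, of which 2 are those of MTUS1. Only ENST00000590156 of ATP5F1A, an ATP synthase subunit, and ENST00000415593 of P4HB, a protein disulfide isomerase, had higher counts than ENST00000262102 in each CYGB library. Their genes had log2 fold changes of 1.18 and 0.01. MTUS1 was chosen from this same contrast, so nothing is read for it from these counts.

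A further 21225 assembled transcripts in the table have neither gene nor position. They took up 18.6 to 19.5% of all counts in a library, and reads of a gene could be counted there. The mean count of MTUS1 was higher by 8117 in CYGB cells. Of the transcripts without a gene, 47 were lower in CYGB cells by 50 to 200% of that number, and 48 were higher by as much. In 6 of the 47 the groups did not overlap, and nothing is read from this count. Of the transcripts with a gene that passed the expression filter, 5.6% were lower without overlap. No such share was computed for the transcripts without a gene. Since none of these has a position, it could not be seen whether any of them lies at MTUS1. Their part in the difference was not tested.

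None of the tested genes around MTUS1 was called. Within 1000000 bases on either side the table lists 29 genes, of which 12 could be tested. The study's threshold for a call was an unadjusted p of at most 0.01 with a ratio of at least 2 or at most 0.5. By it, 0 of the 12 were called with edgeR's quasi-likelihood test, against 0.565% of all tested genes. Of the 12, 0 had an unadjusted p under 0.05, against 4.54% of all. At these shares 0 of 12 is near the background. DESeq2 and edgeR's exact test called 0 of them as well. Their median log2 fold change was 0.03, against -0.007 over all tested genes. PDGFRL, a receptor-like gene on the opposite strand whose end overlaps the end of MTUS1, had 685, 814 and 791 counts in MOCK against 813, 743 and 882 in CYGB cells, with a log2 fold change of 0.07. The noncoding gene AC124069.1, inside the gene on the other strand, had at most 20 counts in any library and a log2 fold change of -0.40.

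SLC7A2, a transporter of cationic amino acids and the nearest tested gene beyond PDGFRL, had 322, 1397 and 1024 counts in MOCK against 1786, 1805 and 1434 in CYGB cells. All CYGB libraries were above the MOCK ones, with MOCK replicate 1 lowest, at a log2 fold change of 0.88 (SE 0.47, edgeR adjusted p = 0.963). VPS37A, a subunit of the ESCRT-I sorting complex, had 688, 249 and 310 counts in MOCK against 384, 195 and 2435 in CYGB cells, so its log2 fold change of 1.19 (SE 0.98) came with overlapping groups and 1 high library. AC027117.1, at 18 to 31 counts in MOCK, had a log2 fold change of -0.34. The remaining neighbours had log2 fold changes between -0.11 and 0.13, namely ZDHHC2 (a palmitoyltransferase), CNOT7 (a deadenylase), MTMR7 (a phosphoinositide phosphatase), PCM1 (a protein of centriolar satellites), ASAH1 (acid ceramidase), NAT1 (an arylamine acetyltransferase) and PSD3 (an exchange factor for ARF6). Their SEs ran from 0.09 to 0.42.

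**Figure D5:**
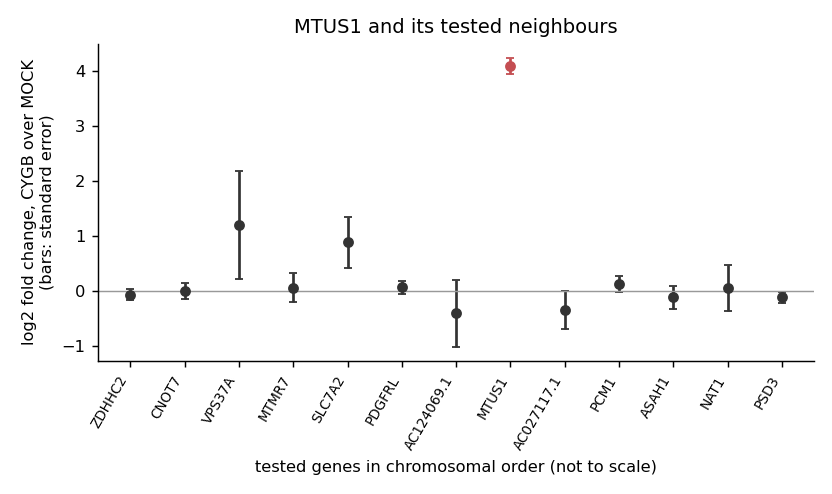
Log2 fold changes of CYGB over MOCK (points) with standard errors (bars) for MTUS1 and the 12 tested genes within 1000000 bases, in chromosomal order. MTUS1 stands at 4.09 and the neighbours lie between -0.40 and 1.19.

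The wider short arm of chromosome 8 was followed with 12 genes described there as tumour suppressor candidates. Of these, 9 could be tested and 0 passed either threshold with edgeR, DESeq2 or edgeR's exact test, with 0 at an unadjusted p under 0.05 in edgeR's quasi-likelihood test. Over all tested genes edgeR's shares were 0.565% by the study's threshold, 0.055% adjusted and 4.54% unadjusted, so that 0 of 9 is near the background. Their median log2 fold change was 0.08, and the highest was 0.16 in MCPH1, the microcephalin gene. The death receptor genes TNFRSF10B and TNFRSF10A had -0.06 and 0.08, ARHGEF10 had -0.22 and PCM1 had 0.13. DLC1, which encodes a GTPase-activating protein, had at most 4 counts in any library and was not tested.

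The receptor that gave ATIP its name was all but missing. AGTR2, the AT2 receptor, had 0, 4 and 4 counts in MOCK and 0 counts in every CYGB library, and AGTR1 had at most 7. Of 15 genes of the renin-angiotensin system, 5 could be tested and 0 were called with edgeR at either threshold, and 1 had an unadjusted p under 0.05, where the shares of all tested genes were 0.565% (study's threshold), 0.055% (adjusted) and 4.54% (unadjusted). That gene was ATP6AP2, the prorenin receptor, with 3706, 5051 and 5037 counts in MOCK against 3512, 2040 and 2112 in CYGB cells. All CYGB values were below the MOCK values, with a log2 fold change of -0.86 (SE 0.25, edgeR adjusted p = 0.963). Without CYGB replicate 1 it passed the study's threshold at -1.17 (edgeR adjusted p = 0.201). AGTRAP, a regulator of the AT1 receptor, and LNPEP, the angiotensin IV-binding aminopeptidase, had log2 fold changes of 0.09 and -0.20.

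Among 9 genes of the AT2 receptor and of proteins described to work with ATIP, 7 could be tested, and edgeR called 0 at either threshold (0.565% and 0.055% of all tested genes), with 2 at an unadjusted p under 0.05 (4.54% of all). PTPN6, the phosphatase SHP-1 that acts downstream of AT2, had 836, 369 and 634 counts in MOCK against 1618, 1620 and 1218 in CYGB cells. The groups did not overlap, and the log2 fold change was 1.24 (SE 0.35, edgeR adjusted p = 0.963). DESeq2, edgeR's exact test, the fit without a filter and the fit without MOCK replicate 1 placed PTPN6 past the study's threshold, with adjusted p from 0.132 to 0.874. UBE2V2, a ubiquitin-conjugating enzyme variant described as a target of AT2 signalling through ATIP, had 4560, 7796 and 6878 counts in MOCK against 4645, 4332 and 4712 in CYGB cells. On the CPM scale all MOCK libraries were above the CYGB ones, with a log2 fold change of -0.50 (SE 0.16, edgeR adjusted p = 0.963). ID1, a helix-loop-helix inhibitor, had a log2 fold change of -0.35.

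MAPRE1, which encodes EB1, differed little, with 296 ± 9.68 CPM in MOCK against 298 ± 9.01 CPM in CYGB cells (SD, n = 3 each) and a log2 fold change of 0.01. KIF2A, a microtubule-depolymerizing kinesin, had 1712, 2109 and 1876 counts in MOCK against 506, 1478 and 1837 in CYGB cells. Its log2 fold change was -0.60 (SE 0.43), with CYGB replicate 1 far below the others. On the CPM scale all MOCK libraries were above the CYGB ones, narrowly so for MOCK replicate 1 (36.2 CPM) and CYGB replicate 3 (35.0 CPM). Its relative KIF2C, known as MCAK, had 202 ± 6.34 CPM in MOCK against 209 ± 12.7 CPM in CYGB cells and a log2 fold change of 0.05. MTUS2, the paralogue of MTUS1, stayed low, with 9, 17 and 50 counts in MOCK against 20, 28 and 28 in CYGB cells, and its log2 fold change was -0.01.

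Of 28 plus-end factors of microtubules, 26 could be tested, and 1 passed the study's threshold (0.28% of all tested genes passed it upwards). That gene was MACF1, a giant spectraplakin that links microtubules to actin, with 4659, 2585 and 2956 counts in MOCK against 14122, 6192 and 17479 in CYGB cells. All CYGB libraries were above the MOCK ones, at a log2 fold change of 1.84 (SE 0.44, edgeR adjusted p = 0.963). MACF1 had an adjusted p of 0.0163 with DESeq2 and 0.0329 with edgeR's exact test, and every other alternative called it by the study's threshold except the fits without MOCK 2, MOCK 3, CYGB 1 or CYGB 3. Those gave log2 fold changes of 1.65, 1.73, 1.73 and 1.56, in that order, at unadjusted p of 0.0198 to 0.0229 in edgeR. CKAP5, the polymerase chTOG, had 14816, 1136 and 5906 counts in MOCK against 3086, 1268 and 3105 in CYGB cells, with widely overlapping groups. DCTN1, of dynactin, had a log2 fold change of 0.17.

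Of 24 proteins that bind the microtubule lattice, 20 could be tested and 0 passed either threshold with edgeR (0.565% and 0.055% of all tested genes), with 1 at an unadjusted p under 0.05 (4.54% of all). That gene was MAPT, which encodes tau, with 2144, 3296 and 3573 counts in MOCK against 1597, 1592 and 1710 in CYGB cells. All CYGB values were below those of MOCK, at a log2 fold change of -0.89 (SE 0.17, edgeR adjusted p = 0.844), and DESeq2 gave it an adjusted p of 0.00639. Without MOCK 1 it passed the study's threshold, at -1.05. The largest log2 fold changes were those of EML1 (1.44, SE 0.62) and EML4 (1.13, SE 0.98), both with overlapping groups, and EML1 passed the study's threshold when CYGB 1 was left out (1.86) but stood at 0.50 without CYGB 3. The abundant STMN1, MAP4 and STMN3 had log2 fold changes of 0.10, 0.01 and 0.11. Of 15 tubulin genes, 14 could be tested and 0 passed either threshold with edgeR, DESeq2 or edgeR's exact test, with 0 at an unadjusted p under 0.05 in edgeR's quasi-likelihood test. With 0.565%, 0.055% and 4.54% of all tested genes called by edgeR in these ways, 0 of 14 is near the background. TUBB and TUBA1C, both among the 3 most abundant, had log2 fold changes of 0.09 and 0.10, and TUBB3 had 0.52. TUBA1B varied more within groups than between them, at a log2 fold change of -0.39. It ran from 2337 to 59191 counts in MOCK and from 1680 to 52980 counts in CYGB cells. Tubulin genes have near-identical copies that can share reads, and whether this played a part here was not tested.

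Over the 6 lists together, 78 of 99 genes could be tested, and their median log2 fold change was 0.03, against -0.007 over all tested genes. With edgeR's quasi-likelihood test 1 of the 78 passed the study's threshold, where 0.565% of all tested genes did. An adjusted p under 0.05 was reached by 0 of the 78 with that test, by 2 with DESeq2 and by 1 with edgeR's exact test. Over all tested genes it was reached by 11, 108 and 64, in that order. Of the 78, 5 had an unadjusted p under 0.05 in edgeR's quasi-likelihood test. Across all tested genes 4.54% did.

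The genes whose course over the 6 libraries was most like that of MTUS1 were found from log2 CPM centred on each gene's mean. Likeness was the root mean square difference from MTUS1 on that scale, whose median over 19986 genes was 2.07. The nearest were the noncoding AC146949.1 (0.58), LRRC24 (0.87), Z83844.3 (0.92), FRMD4A (0.93) and LRRC32 (0.93). Their fitted log2 fold changes were 8.05, 3.33, 5.85, 2.56 and 2.35, in that order, against 4.09 for MTUS1. At counts near 0 the prior count of 2 makes differences in log2 CPM smaller, so likeness there depends on it. AC146949.1 was at 0 in MOCK and had 12, 45 and 43 counts in CYGB cells, and LRRC24 had at most 76 counts in any library. Z83844.3, the only one of the 5 with a mean of 10 CPM or more in a group, had 77, 76 and 41 counts in MOCK against 3408, 3748 and 4294 in CYGB cells. FRMD4A, a scaffold protein of epithelial polarity, had 43, 9 and 10 counts in MOCK against 84, 152 and 150 in CYGB cells. LRRC32, which tethers latent TGF-beta to the cell surface, had 44, 19 and 37 counts in MOCK against 170, 182 and 172 in CYGB cells. The 5 genes lie on chromosomes 5, 8, 22, 10 and 11, respectively, and LRRC24 is not within 5000000 bases of MTUS1. CYGB itself, with its far larger difference, was at 3.19.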

How the data were processed

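The authors deposited raw counts per transcript for 3 MOCK and 3 CYGB libraries, without normalization. The submitters' processing notes name HISAT2, HISAT, DESeq2 and hg19 without a role, and the counting tool is not given in the sources used here. GENCODE 29 holds 151393 of the 151453 transcripts with a gene, 99.5% of them at identical coordinates, so positions are on GRCh38. The 21225 transcripts without a gene entered neither library sizes nor tests.

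Transcripts were summed per gene. Genes kept by filterByExpr (minimum count 10) were normalized by TMM and tested with edgeR 4.0.16 (glmQLFit, glmQLFTest) in R 4.3.3, CYGB against MOCK, with Benjamini-Hochberg adjustment. The common biological coefficient of variation was 36.6%. DESeq2 1.42.0, its size factors, edgeR's exact test, no filter, a mean of at least 50 counts, a replicate block and leaving out each library were alternatives. Log2 CPM used a prior count of 2. Transcript CPM used the gene-level library sizes and transcript lengths came from GENCODE 29. The floor of 3 counts covers counting error only. Libraries of a group differed by a chi-square of at least 101.5 per gene, which shows spread between them but not independence. Each was counted as 1 replicate, as the submitters describe them.

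On simulated counts, 200 of 19351 genes, drawn from those above a minimum mean CPM, were changed 8-fold. The study's threshold called 97% of the 200 (and 148 unchanged genes), and the adjusted p called 93.5% (and 22 unchanged genes). Smaller changes, and changes in genes below that level, were not simulated, so these shares do not cover them. MTUS1, the gene lists and the tests were chosen with earlier results of these data known. Genes named were MTUS1, CYGB, all tested neighbours, the 5 most alike genes and, per list, those past the threshold, the 3 most abundant, the 2 with the largest fold change, and AGTR2, MAPRE1, KIF2A, KIF2C, MTUS2 and UBE2V2. AGTR1, DLC1, MAPT, MCPH1, LGALS4, leukocyte and endothelial markers, ATP5F1A and P4HB were named after their values were seen. Some genes that this rule names are not reported here. Immunoblots and TCGA data were not analysed here.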

Additional observations from a re-analysis of the deposited data

How the results depend on the processing

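The log2 fold change of MTUS1 was 4.09 and lay between 3.99 (without MOCK replicate 3) and 4.21 (without MOCK replicate 1) over 13 alternatives. None of the 14 alternatives called a neighbour, the wider distance of 5000000 bases included. The most upstream start group held 84.1% of MTUS1 counts in CYGB cells, 78.8 to 89.8% with one library left out. It held 2.41% when starts were joined within 100 bases, because ENST00000262102 then forms a group of its own.

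DESeq2 put 263 genes past the study's threshold in place of 113, edgeR's exact test 256, and a minimum mean of 50 counts, where fewer genes are tested, 62. Leaving out each library gave 124 to 177, with 177 without MOCK replicate 3. DESeq2 gave 108 genes an adjusted p under 0.05 in place of 11, the exact test gave 64, and leaving out each library gave 6 (without MOCK replicate 1) or 7 (without CYGB replicate 3) up to 14. The cause was not tested.

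Of the listed genes, 1 passed the threshold, and 2 did so with DESeq2, the exact test or no expression filter. Over all genes these counts were 113, 263, 256 and 156, in that order. Leaving out each library gave 0 listed genes (without MOCK replicate 2, MOCK replicate 3 or CYGB replicate 3) to 3 (without MOCK replicate 1), against 124 to 177 over all genes. With an adjusted p under 0.05 there were 0 listed genes, 2 with DESeq2 and 1 with edgeR's exact test, where all genes gave 11, 108 and 64. Adding the transcripts without a gene to library sizes was chosen after seeing the data and changed none of these counts.

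Samples with the same replicate number did not deviate together (correlations of 0.016, 0.0049 and 0.025). With the replicate block MTUS1 was at 4.10 and 0 genes had an adjusted p under 0.05 (764 an unadjusted p under 0.05). Depth limits the rarest isoforms, as transcripts under 20 counts cannot be compared.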
